A study of Mus musculus with 2 samples.

Results

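Ephrins, Slits, netrins and repulsive guidance molecules are the cues that steer growing axons, and Eph, Robo, Dcc, Neo1 and Unc5 proteins are the receptors that read them. The members are the protein-coding genes whose symbols belong to these families: EphA and EphB receptors, ephrin-A and ephrin-B ligands, Slit1 to Slit3, Robo1 to Robo4, secreted netrins, netrin-Gs, Unc5a to Unc5d, Dcc, Neo1, Rgma and Rgmb. The choice by symbol gave 43 genes of 55536 annotated genes, or of 22015 nuclear protein-coding genes. It used no measured value.

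Eph receptors are receptor tyrosine kinases. They are activated by ephrins on neighbouring cells, and ephrins can signal back into the cell that carries them. EphA receptors mostly bind the membrane-anchored ephrin-As, and EphB receptors mostly bind the transmembrane ephrin-Bs, with Epha4 able to bind both classes. Slits are secreted repellents for Robo receptors, and netrin 1 attracts axons through Dcc and repels them through Unc5 receptors. In the hippocampus these families are known for placing mossy fibres, entorhinal and commissural axons, and several later act at dendritic spines.

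The tissue was hippocampus of female mice of the hybrid strain B6CASTF1/J at 14 days of age, described as a layer of the hippocampus without naming it. Total RNA was sequenced in 2 libraries of 1 group, biological replicates 1 and 2, each listing 3 females with different mouse numbers. Each library started from 300 ng of RNA with ERCC spike-ins (synthetic control RNAs), and both carry the same donor identifier. No genotype, treatment or second age was compared, so there is no test between groups. The values below are levels, their spread between replicates and ratios of replicate 2 to replicate 1. A bulk level is an average over all cells of the tissue.

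The libraries held 33465393 (replicate 1) and 32879872 (replicate 2) expected counts, which are estimated reads per gene. Marker genes of CA1, CA3 and dentate granule neurons were detected in 5 of 5 cases each. The libraries stood apart in markers of some neighbouring tissues. The summed level of 8 choroid plexus markers was 9.86 TPM in replicate 2 and 1437 TPM in replicate 1, and 8 of 8 were lower in replicate 2, with none of them at 0. For 5 fibroblast and meningeal markers the sums were 106.53 TPM and 168 TPM, with 5 of 5 lower in replicate 2, and for 5 ependymal markers they were 10.1 TPM and 23.4 TPM. For 5 dentate granule markers the sums were 156 TPM (replicate 2) and 127 TPM (replicate 1), with 5 of 5 higher in replicate 2.

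Levels are in TPM, a share of all transcripts that divides reads by transcript length and so lets genes be set side by side. Paired levels of a gene are those of replicates 1 and 2. A gene was called detected at 1 TPM or more in both libraries. By that rule 39 of the 43 guidance genes were detected, or 90.7%, against 58.6% of all protein-coding genes. The exceptions were Epha1, Epha2, Efna4 and Ntn5. The median level over all 43 was 15.2 TPM in replicate 1 and 12.2 TPM in replicate 2, with a median of mean levels of 13.7 TPM (SD of the library medians 2.09, n = 2). Over all protein-coding genes that median was 3.53 TPM. Among detected genes the medians were closer, at 18.7 TPM for guidance genes and 14.9 TPM for protein-coding genes. A level above 40 TPM in both libraries was reached by 12 members, and 19 members stood above 75% of protein-coding genes.

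**Figure D1:**
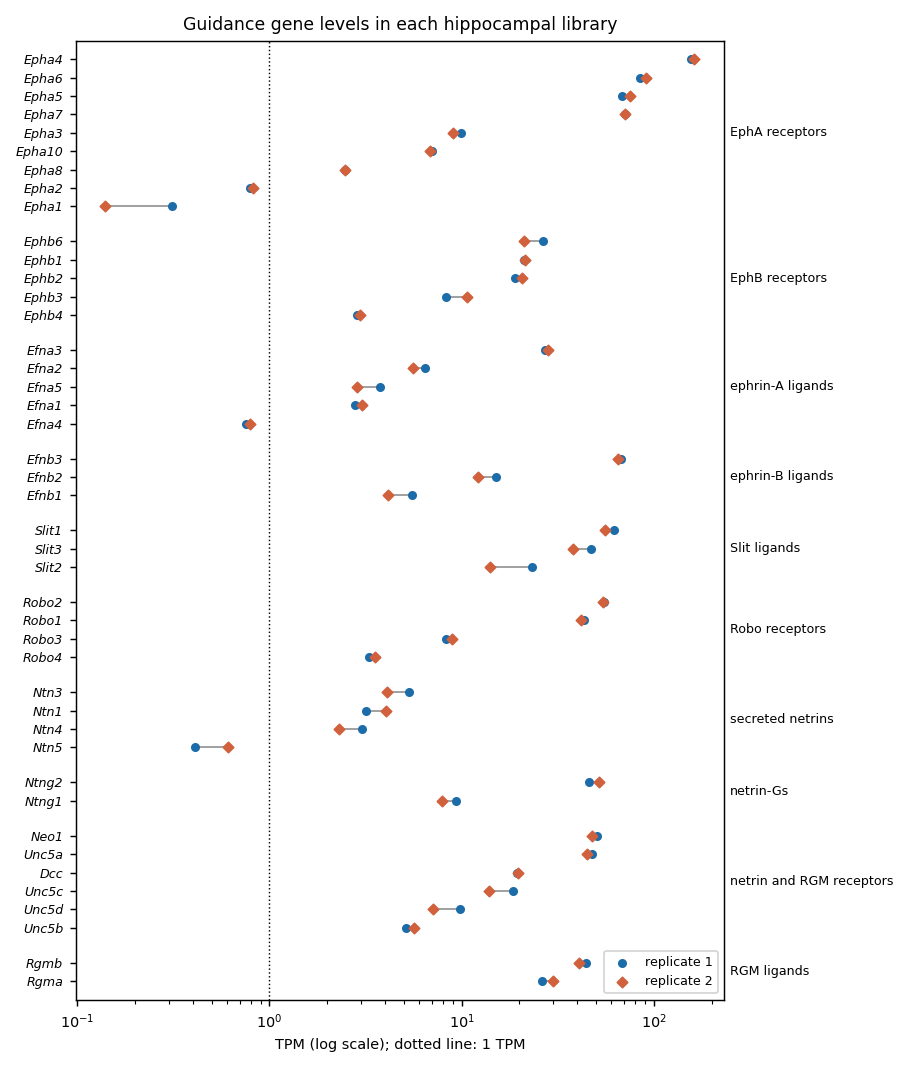
Level of each of the 43 guidance genes in TPM (log axis), in replicate 1 (circles) and replicate 2 (diamonds), grouped by family; the dotted line marks 1 TPM. Epha4 is highest, at 157 and 163 TPM, and Epha1 lowest, at 0.31 and 0.14 TPM.

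The EphA receptors made up the largest summed level of the families. The summed levels of their 9 genes were 402 TPM (replicate 1) and 419.8 TPM (replicate 2; mean 411 ± 12.8, SD, n = 2). Epha4, a receptor for both ephrin classes, lies on chr1:77367185-77515088 (mm10, minus strand) and had 157 TPM in replicate 1 and 163 TPM in replicate 2. It was the highest of all 43 members, held 38.9% ± 0.141 of the EphA sum and stood above 98.0% of protein-coding genes. Epha6 had 85.3 TPM in replicate 1 and 91.2 TPM in replicate 2. Its gene, on chr16:59653483-60605531, spans 952 kb, and 12 members span more than 300 kb. Epha5 had 68.4 TPM and 75.6 TPM in replicates 1 and 2, and Epha7 had 70.8 TPM and 70.9 TPM. These levels do not order Epha5 and Epha7, since the values of one lie around those of the other. Every other pair of neighbours in the EphA order did not overlap between libraries. In the second quantification Epha7 was above Epha5 in both libraries, at 107.3 TPM and 110.2 TPM against 96.8 TPM and 105.2 TPM. The remaining EphA genes were far lower. Epha3 had 9.96 TPM and 9.04 TPM, Epha10 had 7.0 TPM and 6.83 TPM, and Epha8 had 2.46 TPM and 2.47 TPM. Epha2 and Epha1, receptors best known from epithelia, stayed under 1 TPM in both libraries, with 0.79 TPM and 0.82 TPM for Epha2 and 0.31 TPM and 0.14 TPM for Epha1. The call for Epha2 depends on the table: the second quantification, a separate transcript table made from the reads, put it at 3.10 TPM and 3.56 TPM. Of that level the noncoding Epha2-204 took 63.6% and 63.9% in replicates 1 and 2, and the coding Epha2-201 36.4% and 27.8%. Levels also ran higher in that table, with a member median of 24.3 TPM against 13.7 TPM. The Epha1 values rest on 18 and 10 expected counts, and 6.01% of its exon bases lie opposite exons of Zyx, which had 25.8 TPM and 25.4 TPM. The sources used here do not say whether reads were counted by strand.

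EphB receptors were lower as a family and more even. The sums over 5 genes were 77.9 TPM (replicate 1) and 76.8 TPM (replicate 2; 77.3 ± 0.757, SD, n = 2), and all 5 were detected. Ephb6 had 26.5 TPM in replicate 1 and 21.02 TPM in replicate 2, Ephb1 21.1 TPM and 21.5 TPM, and Ephb2, a receptor known at excitatory synapses, 19.1 TPM and 20.6 TPM. Ephb6 and Ephb1 overlapped between libraries, so these levels do not order them. In the second quantification Ephb6 was above Ephb1 in both libraries, at 49.2 TPM and 42.7 TPM against 32.2 TPM and 35.8 TPM. Ephb6 held 34.1% of the EphB sum in replicate 1 and 27.4% in replicate 2. Ephb3 had 8.34 TPM and 10.7 TPM, and Ephb4, a receptor best known from veins, had 2.87 TPM and 2.97 TPM.

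Ephb6 and Epha10 are known as Eph receptors without kinase activity. The coding sequence of their catalytic loop shows where they depart from the kinase-active receptors, and the stretch is shown for both beside the most abundant EphA receptor and the synaptic receptor Ephb2. Each window is 24 bases of coding sequence on mm10, read 5′ to 3′ on the coding strand from the longest annotated coding sequence (for Epha10, one with an incomplete start), and the capitals mark its codon 3, where kinases encode the catalytic aspartate (GAC or GAT).
Epha4, chr1:77382962-77382985, minus strand: catcgaGACctggctgccaggaac
Ephb2, chr4:136659662-136659685, minus strand: caccgtGACcttgctgctcgaaac
Ephb6, chr6:41618664-41618687, plus strand: caccgaGCActctcggcccgaagt
Epha10, chr4:124914018-124914041, plus strand: caccggGGCcttgcagcccgccga
An aspartate codon stands there in 12 of the 14 Eph receptors and another codon in 2, Ephb6 with GCA and Epha10 with GGC. By gene, Ephb6 was thus at or near the top of the EphB levels, while Epha10 held 1.68% ± 0.0817 of the EphA sum. Of Ephb6 TPM, 30.9% in replicate 1 and 29.5% in replicate 2 came from Ephb6-203, a 459-base transcript with incomplete coding sequence. Ephb6-201, the form shown, had 18.3 TPM and 14.8 TPM, below Ephb1-201 at 19.5 TPM and 20.5 TPM. In the second quantification Ephb6-201 took 52.3% and 47.8% of Ephb6 TPM, and Ephb1-201 took 84.9% and 78.1% of Ephb1 TPM. The sequence is that of the mm10 assembly; alleles of the hybrid mice were not analysed here.

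Ephrin-A ligands were low beside their receptors. The sums over 5 genes were 40.96 TPM (replicate 1) and 40.4 TPM (replicate 2; 40.7 ± 0.389, SD, n = 2), and Efna3 held 68.0% ± 2.32 of that. Efna3 had 27.2 TPM in replicate 1 and 28.2 TPM in replicate 2. The others lay below 7 TPM, with Efna2 at 6.43 TPM and 5.58 TPM. Efna5, a repellent cue of topographic maps, had 3.78 TPM and 2.85 TPM, and Efna1, first known from endothelium, had 2.79 TPM and 3.03 TPM. Efna5 and Efna1 overlapped between libraries. Efna4 had 0.76 TPM and 0.79 TPM, from 26 and 27 expected counts. Efna1, Efna3 and Efna4 lie together on chromosome 3, from 89271733 to 89338028. An antisense gene, Gm15998, covers 14.1% of the exon bases of Efna3 and had 0.23 TPM in each library.

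Ephrin-B ligands were carried by Efnb3, an ephrin known from neurons, with 67.8 TPM in replicate 1 and 65.2 TPM in replicate 2, or 78.3% ± 2.36 of their sum. Efnb2, best known from arteries and also expressed by neurons, had 15.2 TPM and 12.2 TPM, and Efnb1 had 5.49 TPM and 4.12 TPM. The order Efnb3, Efnb2, Efnb1 held in both libraries without overlap. The sum was 88.4 TPM in replicate 1 and 81.5 TPM in replicate 2 (84.99 ± 4.88, SD, n = 2). All 3 ephrin-Bs can signal backwards through their cytoplasmic tail, which ends in a motif that binds PDZ domains. The last 27 bases of the coding sequence are shown to compare those ends, on mm10 and 5′ to 3′ on the coding strand; capitals mark the last 4 codons before the stop codon.
Efnb3, chr11:69555860-69555886, minus strand: cctccgaacatcTATTACAAGGTAtga
Efnb2, chr8:8620588-8620614, minus strand: cctgccaacattTACTACAAGGTCtga
Efnb1, chrX:99147501-99147527, plus strand: ccggcgaacatcTACTACAAGGTTtga
The codons differ between the genes in synonymous bases and all encode tyrosine, tyrosine, lysine and valine. The low Efnb1 and the high Efnb3 therefore share the same coded end.

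Slits were among the more abundant ligands. Slit1, the Slit most restricted to the nervous system, had 61.9 TPM in replicate 1 and 55.7 TPM in replicate 2 and made up 49.2% ± 3.55 of the family sum. Slit3 had 47.4 TPM and 38.0 TPM, and Slit2 had 23.4 TPM and 14.1 TPM. All 3 were lower in replicate 2, and at these levels the order Slit1, Slit3, Slit2 held in both libraries without overlap. In the second quantification the order held within each library. There Slit1, at 86.4 TPM and 77.3 TPM, overlapped Slit3, at 79.9 TPM and 65.2 TPM. The sum was 108 TPM in replicate 2 and 133 TPM in replicate 1 (120.3 ± 17.6, SD, n = 2), the widest spread of any family.

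Robo receptors were steady between libraries. Robo2 had 54.9 TPM in replicate 1 and 54.5 TPM in replicate 2, and Robo1 had 43.4 TPM and 41.9 TPM. These are the main neuronal Slit receptors, and Robo2 alone held 50.02% of the Robo sum of 109.9 TPM and 108.8 TPM (109 ± 0.750, SD, n = 2). In the second quantification Robo2, at 75.1 TPM and 77.3 TPM, and Robo1, at 76.1 TPM and 75.4 TPM, overlapped. The noncoding Robo2-207 took 17.1% and 15.85% of Robo2 TPM in replicates 1 and 2, and 0% in the second quantification. Robo3, known for commissural crossing and for little affinity to Slits in mammals, had 8.26 TPM and 8.97 TPM. Robo4, known from endothelium, had 3.28 TPM and 3.54 TPM. The summed level of 6 endothelial markers was likewise close in both libraries, at 68.5 TPM in replicate 1 and 69.2 TPM in replicate 2.

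Secreted netrins were the lowest family. Ntn3 had 5.32 TPM in replicate 1 and 4.09 TPM in replicate 2, Ntn1, the classical attractant, 3.20 TPM and 4.02 TPM, and Ntn4, a netrin of basement membranes, 3.04 TPM and 2.29 TPM. Ntn5 stayed at 0.41 TPM and 0.61 TPM, from 14 and 21 expected counts, and 23.4% of its exon bases lie opposite exons of Sec1. Their sum was 12.0 TPM and 11.0 TPM (11.5 ± 0.679, SD, n = 2). Netrin-Gs are a separate branch, anchored to the axon membrane and bound by the synaptic proteins Lrrc4c and Lrrc4 and not by Dcc. Ntng2 had 46.1 TPM in replicate 1 and 51.8 TPM in replicate 2, and Ntng1 had 9.35 TPM and 7.91 TPM. Ntng2 thus held 84.9% ± 2.55 of the netrin-G sum. Ntng2 shares 14.0% of its exon bases with 6530402F18Rik, a noncoding gene on the same strand at 17.8 TPM and 17.6 TPM, so some reads could belong to either. The netrin-G partners Lrrc4c and Lrrc4 were both detected, with 22.1 TPM and 24.6 TPM for Lrrc4c and 30.8 TPM and 31.6 TPM for Lrrc4.

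Receptors of netrins and repulsive guidance molecules were all detected. Neo1, the receptor for repulsive guidance molecules that also binds netrins, had 50.5 TPM in replicate 1 and 47.9 TPM in replicate 2. Unc5a had 47.5 TPM and 45.1 TPM, and Dcc, the attractive netrin receptor, had 19.5 TPM and 19.6 TPM. Unc5c had 18.5 TPM and 14.0 TPM, Unc5d, which also binds Flrt2, 9.83 TPM and 7.13 TPM, and Unc5b, best known from blood vessels, 5.16 TPM and 5.68 TPM. At these levels each neighbouring pair in this order was separate in both libraries. In the second quantification Dcc had 28.9 TPM and 28.7 TPM and Unc5c 29.3 TPM and 21.2 TPM, so that pair overlapped. The 6 genes summed to 151 TPM and 139 TPM (145 ± 8.27, SD, n = 2). The ligands of Neo1 were abundant, with Rgmb at 44.4 TPM and 40.97 TPM and Rgma at 26.1 TPM and 29.97 TPM. Together the RGM genes came to 70.6 TPM and 70.9 TPM.

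**Figure D2:**
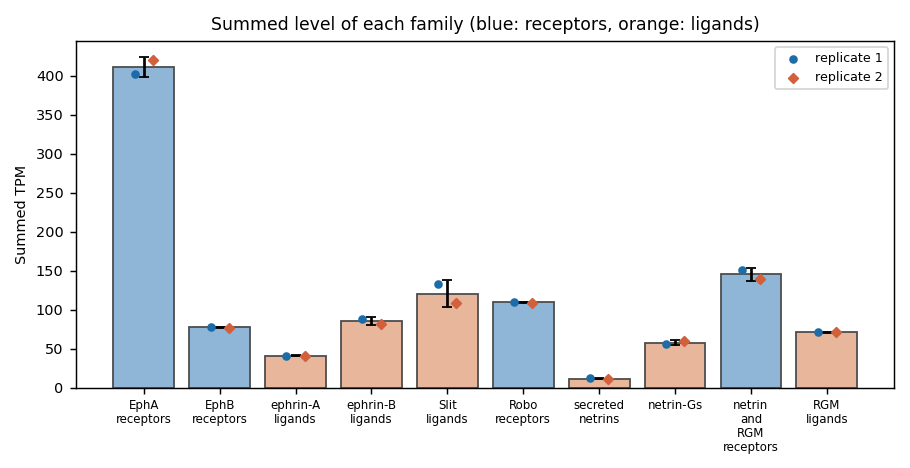
Summed level of each family in TPM on a linear axis from 0; bars are means over 2 libraries, error bars the SD, and points the libraries. EphA receptors stand at 411 TPM against 40.7 TPM for ephrin-As, and secreted netrins are lowest at 11.5 TPM.

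The balance of ligand to receptor messages differed between systems. Ephrin-A messages were 0.102 of the EphA sum in replicate 1 and 0.0963 in replicate 2, so EphA messages exceeded them 10.1 ± 0.411 times (SD, n = 2). Epha4, which can bind both ephrin classes, was counted on the EphA side only and held 38.9% of that sum. All sums here are gene totals and include noncoding transcripts. Secreted netrin messages were 0.0793 and 0.0790 of the summed Dcc, Neo1 and Unc5 messages. Neo1, also the receptor for repulsive guidance molecules, held 33.9% of that receptor sum. Rgma and Rgmb, together 70.6 TPM in replicate 1 and 70.9 TPM in replicate 2, were not counted on the ligand side. The ratio thus depends on which genes are summed. Ephrin-B to EphB and Slit to Robo lay near 1, with ratios of 1.14 and 1.06 for ephrin-B to EphB in replicates 1 and 2. For Slit to Robo the ratios were 1.21 in replicate 1 and 0.991 in replicate 2, so neither side was the higher in both libraries. Ligands made by projecting neurons or targets outside the sampled tissue are not seen in these sums, and message is not protein.

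Signalling partners of the receptors were nearly all detected, by a rule that 58.6% of all protein-coding genes passed. The lists hold genes picked for their known part in these pathways and are not a sample of all genes. Of 19 listed partners of Eph and ephrin signalling 19 were detected, led by Chn1, the Rac-inactivating chimaerin downstream of Epha4, with 562 TPM in replicate 1 and 594 TPM in replicate 2. The exchange factor Kalrn followed at 182 TPM and 197 TPM, and the kinase Fyn at 113 TPM in both libraries. Of 9 partners of Slit and Robo 9 were detected, led by Nell2, a ligand of Robo3, at 373 TPM and 366 TPM, with the Robo-binding GTPase activator Srgap3 at 110.4 TPM and 99.9 TPM and the actin regulator Enah at 78.8 TPM and 77.4 TPM. The lowest by mean were Vav3, an exchange factor downstream of Eph receptors, at 3.92 TPM and 3.06 TPM, whose values overlap those of Arhgef15 (3.32 TPM and 3.83 TPM) and Grip2 (3.44 TPM and 4.05 TPM), and Srgap1 at 8.23 TPM and 8.38 TPM. Nell2 was thus far above every Slit. Of 17 partners of netrin, Unc5 and RGM signalling 16 were detected, led by Maged1, which binds Unc5a, at 212 TPM and 196 TPM. Pitpna, a lipid transfer protein that binds Dcc and Neo1, had 135 TPM and 125 TPM, and the exchange factor Trio had 110.2 TPM and 96.8 TPM. The exception was Bmp2, a ligand of the pathway in which RGMs act as co-receptors, at 0.90 TPM and 0.67 TPM.

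The 2 libraries were set against each other by the log2 ratio of replicate 2 to replicate 1, from expected counts scaled to the libraries' effective sizes (TMM), for genes with a mean of at least 1 TPM and 50 or more summed counts. Of the 39 members measured this way 16 were lower and 23 higher in replicate 2. That is 41.0% lower, against 47.7% of protein-coding genes. Among the 39, 0 were 1.5-fold or more apart in either direction. Among 13068 protein-coding genes 2.3% were at least 1.5-fold lower and 0.926% at least 1.5-fold higher in replicate 2, so a count of 0 among 39 is near that background. At 2-fold the count was again 0 in each direction, against 0.658% lower and 0.153% higher. In each of the 3 partner lists 0 genes were 1.5-fold or more apart. The log2 ratios of the members had a median of 0.05 and an SD of 0.21, against a median of 0.01 and an SD of 0.35 over protein-coding genes.

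Slit2 and Unc5d lay lowest among the members. Slit2 had 2178 expected counts in replicate 2 and 3224 in replicate 1, a log2 ratio of -0.45 (95% counting interval -0.53 to -0.38), or 1.37-fold lower. Its deposited TPM differed more, and on log2(TPM + 1) its ratio was -0.69, past 1.5-fold. The share of its leading transcript also differed, with Slit2-216 at 48.9% of Slit2 TPM in replicate 2 and 35.4% in replicate 1. Unc5d had 1076 counts in replicate 2 and 1544 in replicate 1, a log2 ratio of -0.41 (-0.52 to -0.30). Efna5, Efnb1 and Efnb2 followed at -0.34, -0.25 and -0.23. The other Slits were nearer to 0, with Slit3 at -0.14 (-0.20 to -0.07) and Slit1 at -0.03 with an interval from -0.08 to 0.01 that includes 0. Fewer cells of a type and less RNA per cell cannot be told apart in bulk tissue. The choroid plexus, ependymal and fibroblast marker sums were lower in replicate 2 as well, by the values given with the libraries' depth, and their part in these ratios was not tested.

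Ephb3 and Ntn1 lay highest. Ephb3, a receptor best known from intestinal crypts, had 938 expected counts in replicate 2 and 741 in replicate 1, a log2 ratio of 0.45 (0.31 to 0.59). Ntn1 had 474 counts in replicate 2 and 392 in replicate 1, a ratio of 0.38 (0.19 to 0.58). Epha4, Epha5 and Epha6 were each higher in replicate 2, at log2 ratios of 0.17, 0.21 and 0.21, and of the 7 EphA genes measured Epha7 alone was lower with TMM scaling, at -0.08. With ERCC totals Epha3 was lower too, at -0.04, and on log2(TPM + 1) Epha3 and Epha10 were lower, at -0.13 and -0.03, and Epha7 was not. Other marker lists moved between libraries as well. Dentate granule markers were higher in replicate 2 in 5 of 5 cases, and CA1, astrocyte and microglia markers had 1 of 5 lower each, with median log2 ratios of 0.25, 0.21 and 0.23. Of CA3 and of pericyte and smooth muscle markers 4 of 5 were lower, and of interneuron markers 4 of 6, with interneuron sums of 316 TPM in replicate 2 and 381 TPM in replicate 1. The part of these cell types in the members' ratios was not tested. The Slit genes, Unc5d and Efnb1 stayed lower, and Epha4, Epha5, Epha6, Ephb3 and Ntn1 stayed higher, in replicate 2 under each scaling and count alternative run; several of these shift every gene by the same amount.

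**Figure D3:**
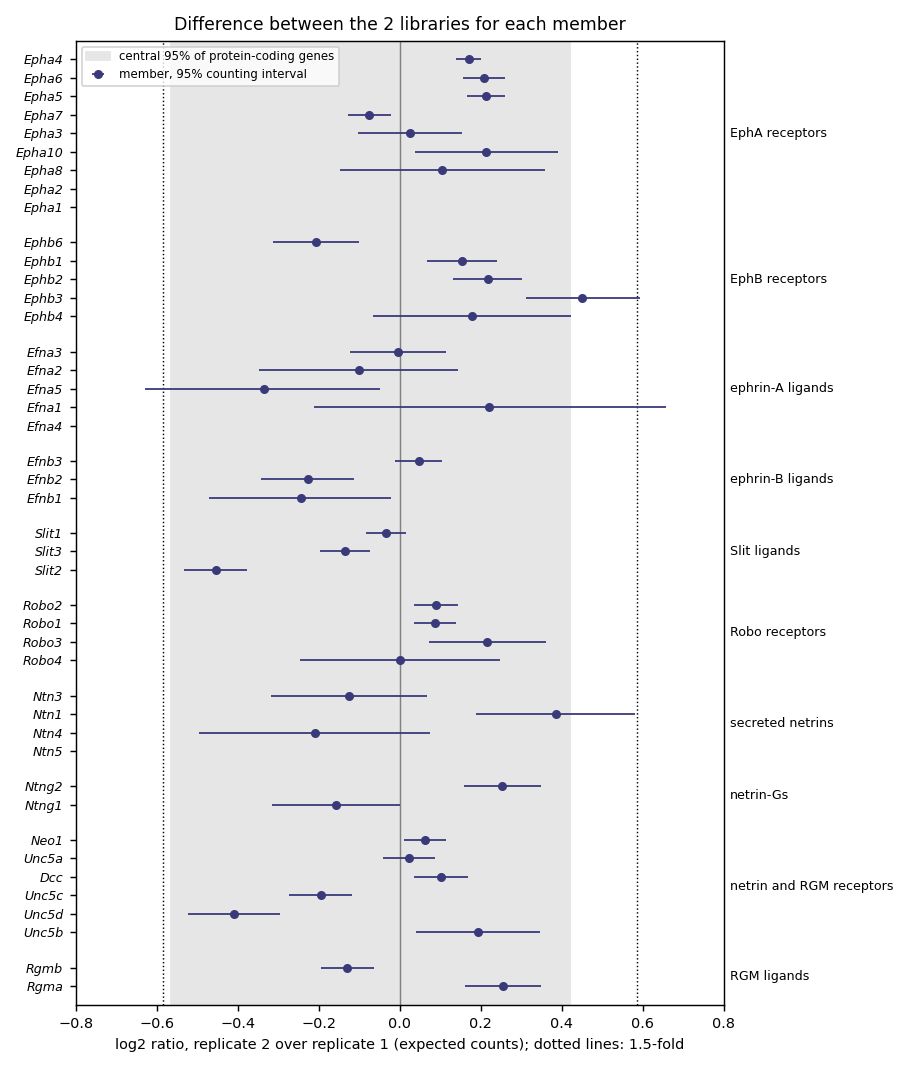
Log2 ratio of replicate 2 over replicate 1 for the 39 members measured, with 95% counting intervals; the grey band is the central 95% of protein-coding genes (-0.57 to 0.42) and dotted lines mark 1.5-fold. All members lie between the dotted lines, from -0.45 for Slit2 to 0.45 for Ephb3.

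The transcript tables show which form of each gene was read. Of the 39 detected members 38 had the same leading transcript in both libraries, the exception being Epha5. In 27 a single transcript took at least 50% of the gene's TPM in both libraries. Transcripts annotated as protein-coding took a median of 92.1% of a member's TPM. In 5 members, Epha5, Ntng1, Ntng2, Robo3 and Unc5c, transcripts with a retained intron or a nonsense-mediated decay annotation together took over 20% in both libraries. That list holds for the first quantification. It was longer in the second, where Epha4, Epha6, Ephb2 and Robo4 also passed 20% in both libraries. There retained-intron transcripts took a mean of 23.3% in Epha6 and 22.6% in Ephb2. Transcripts annotated for nonsense-mediated decay took a mean of 34.6% in Robo4 and 20.2% in Epha4. For Epha4 the first quantification gave them 5.86% in replicate 1 and 7.76% in replicate 2. Ntng2 had the lowest protein-coding share. Its leading transcript Ntng2-211, annotated for nonsense-mediated decay, took 48.1% in replicate 1 and 45.0% in replicate 2, and the coding Ntng2-204 took 40.8% and 43.8%. The coding Ntng2 forms together came to 21.6 TPM and 25.6 TPM, below the gene's total. Ntng1 was led by another such transcript, Ntng1-206, at 28.9% and 27.1%. In Robo3, retained-intron transcripts took 39.2% and 39.3%. Epha6 was led by the coding Epha6-201 at 67.7% and 68.9%, with the retained-intron Epha6-202 at 21.6% and 19.9%. Total RNA includes unspliced RNA, and short reads assign overlapping forms only by estimate.

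**Figure D4:**
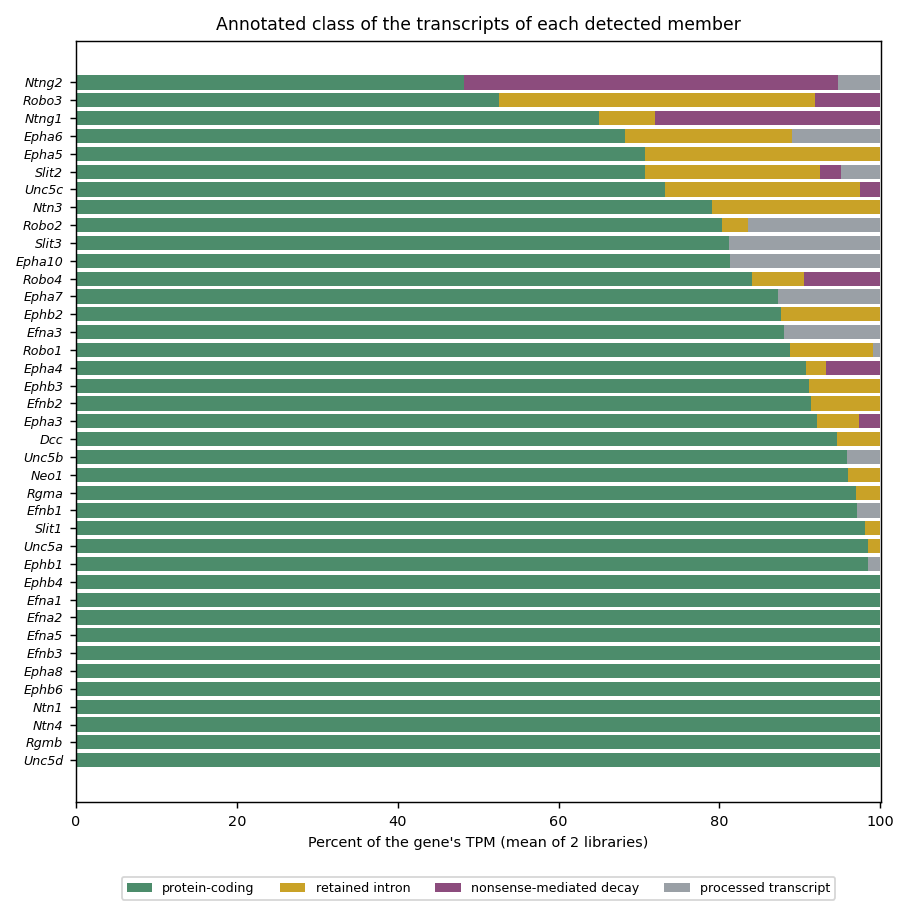
Percent of each detected gene's TPM in transcripts of each annotated class, mean of 2 libraries, ordered by the protein-coding share. Ntng2 has the lowest coding share, at 46.9% and 49.5% in replicates 1 and 2, and genes at the bottom are annotated as coding throughout. The shares are those of the first quantification. In the second, coding transcripts took 71.3% of Ephb6 TPM, a gene at 100% here, and 58.0% of Efnb1 TPM.

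Several receptors and ligands were led by a form that differs in coding length. Dcc was led by Dcc-202 at 66.5% in replicate 1 and 65.9% in replicate 2 over Dcc-201 at 27.5% and 29.3%, and their coding sequences differ by 60 bases. Slit1-201 took 53.7% and 52.1% and Slit1-203, which is 219 coding bases shorter, 43.1% and 45.9%. Unc5a was almost one form, Unc5a-202, at 90.3% and 92.9%, which is 168 coding bases shorter than Unc5a-201. The forms of Epha7 differed more, and truncated Epha7 receptors without a kinase domain are known in the mouse.

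Short coding forms led the Epha7 message. Epha7-202 took 32.8% of Epha7 TPM in replicate 1 and 37.5% in replicate 2, and Epha7-204 took 24.8% and 26.0%. Together these forms held 57.6% and 63.5% (60.6% ± 4.16, SD, n = 2). The full-length forms Epha7-201 and Epha7-203 together held 31.1% in replicate 1 and 22.1% in replicate 2. Epha7-202 has 1830 coding bases and Epha7-204 has 1878, against 2994 in Epha7-201. Both share the first 1798 coding bases with Epha7-201 and then add 32 and 80 bases of their own, whereas the catalytic-loop window of Epha7-201 starts at coding base 2266. The coding ends are shown because they mark the point where the forms part. Each begins with the last 30 shared bases, on chromosome 4 of mm10, plus strand, 5′ to 3′; capitals mark the bases after the split, up to and with the stop codon in the short forms.
Epha7-202, spliced, chr4:28943349-28946253: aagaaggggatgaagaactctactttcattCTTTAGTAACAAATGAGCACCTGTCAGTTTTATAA
Epha7-201, spliced, chr4:28943349-28947562: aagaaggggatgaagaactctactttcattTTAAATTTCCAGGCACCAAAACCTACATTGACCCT
Epha7-204, spliced, chr4:28943349-28966605: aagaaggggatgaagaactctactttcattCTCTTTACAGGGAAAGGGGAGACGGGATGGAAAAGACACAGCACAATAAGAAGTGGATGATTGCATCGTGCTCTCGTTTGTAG
In the second quantification the short forms held 50.4% in replicate 1 and 55.6% in replicate 2, and the full-length forms 31.2% and 22.3%. The short forms thus exceeded the full-length ones in both libraries and both tables. Epha7 TPM was equal between libraries to within 0.1 TPM, while its expected counts were 5314 in replicate 2 and 6047 in replicate 1.

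**Figure D5:**
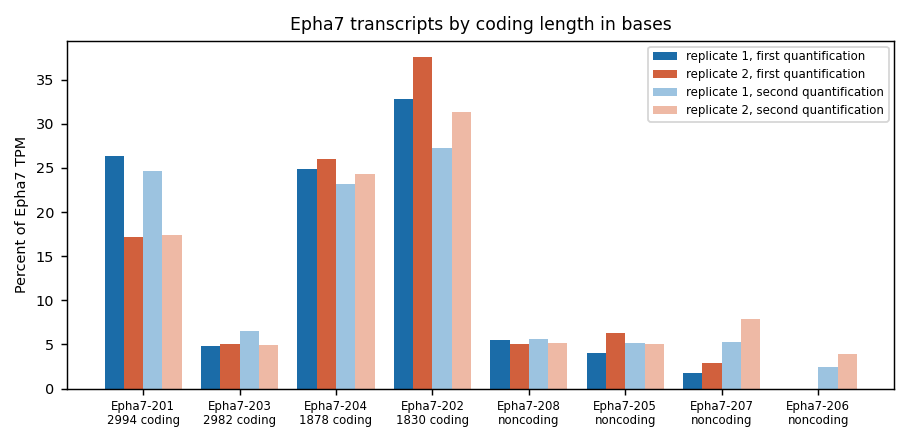
Percent of Epha7 TPM in each annotated transcript, with coding length in bases, in both libraries and both quantifications. Epha7-202 is highest in all 4 sets, at 32.8% and 37.5% in replicates 1 and 2 of the first.

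Promoters of the members were read from RefSeq windows of 300 bases on GRCm38.p6, which run from 250 bases before to 50 after a gene's start. Of the 43 members 37 had a window. The highest number of CG pairs in a window had a median of 23 over members, against 15 over 16522 protein-coding genes and 22 over those detected. At least 10 CG pairs stood in 34 of 37 members, or 91.9%, against 87.7% of detected protein-coding genes, so the members were close to other expressed genes. The range ran from 2 in Robo4, the endothelial receptor, to 56 in Epha8. The letters TATAAA, on either strand, stood in 4 of 44 member windows and in 13.6% of all windows; a match is a description of the letters only.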

How the data were processed

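The authors quantified each library against mm10 and GENCODE M21, per the notes deposited with the files. The deposited gene and transcript tables give expected counts and TPM per the file headers, and each transcript's percent of its gene's TPM; their columns have the RSEM layout. A second deposited transcript table has the kallisto layout, with estimated counts and TPM, summed here per gene. Aligner and tool versions were not given in the sources used here, nor whether counting used strand, so antisense and overlapping genes are uncertain.

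Members and lists were chosen with earlier results of these data known. Levels are means ± SD over 2 libraries. Nothing says how far the libraries share animals or handling beyond their listed mouse numbers, so the spread may be technical. Replicate 2 was divided by replicate 1 on TMM-scaled expected counts (edgeR 4.0.16, R 4.3.3) and a prior count of 0.5; exact binomial 95% intervals cover counting error only. The ratio step was tested on simulated data. By rule, all 43 members were given, and of each partner list the 3 highest genes and the lowest; Lrrc4, Lrrc4c, Arhgef15 and Grip2 were named outside it, after their values were seen. Alternatives were the second quantification, DESeq2 1.42.0 size factors, ERCC totals, log2(TPM + 1), other thresholds, TPM rescaled over protein-coding genes and leaving out each library. Coding stretches came from GENCODE M21 transcripts and the M21 annotation, and promoters from RefSeq. Python 3.11.15, numpy 2.4.6, pandas 2.3.3, scipy 1.17.1, biopython 1.88 and matplotlib 3.10.9 were used.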

Additional observations from a re-analysis of the deposited data

How the results depend on the processing

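The median level of 13.7 TPM was 24.3 with the second quantification, 33.5 with that rescaled over protein-coding genes, 31.2 with TPM rescaled so, and 18.7 over members at 1 TPM or more, and ran from 12.2 to 15.2 leaving out a library. Detected members were 40 in the second quantification, with Epha2 added, 41 at 0.5 TPM, 30 at 5 TPM, and 39 leaving out either library. Members 1.5-fold lower in replicate 2 became 1 on log2(TPM + 1), Slit2, and 1 with no filter on low values, Epha1; members 1.5-fold higher became 1 with no filter, Ntn5. Members with a transcript at 75% or more were 14, against 27 at 50%, and 27 to 30 leaving out a library. Ephrin-B to EphB was 1.00 and netrins to receptors 0.0959 in the second quantification. The balances, single members, Epha7 forms and ERCC scaling of folds were alternatives chosen after seeing the data. No paired analysis was possible because there is 1 group. Depth limits Epha1, Ntn5 and Efna4, with at most 27 counts in a library.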
